A study of Mus musculus with 6 samples.

Results

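The genes described are 9 integrin subunits (Itga4, Itga5, Itga6, Itgav, Itgal, Itgam, Itgb1, Itgb2 and Itgb7) and Cd44, a set of 10 adhesion receptor genes of haematopoietic cells. They were taken by name: each RefSeq accession in the deposited tables was matched to its gene, and each of the 10 genes had 1 entry among the 23146 used. The 6 libraries came from EML, a mouse haematopoietic progenitor line grown in medium with stem cell factor and serum, labelled bone marrow, strain BDF1 and basophil. KAI1, the protein of the gene Cd82, was knocked down in 2 libraries (KAI1 knockdown, replicates 1 and 2) that have 2 libraries of a knockdown control, and was overexpressed in 1 library (KAI1 overexpression) that has 1 library of an overexpression control. How KAI1 was knocked down or overexpressed, what the controls received, and whether the libraries came from separate cultures are not given in the sources used here, so a p-value here reflects no more than the spread among these libraries, and that spread may be technical.

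Integrins are membrane receptors made of an alpha and a beta subunit, which bind matrix proteins or counter-receptors on other cells and are linked to actin through their short tails. The product of Itgb1 pairs with those of Itga4, Itga5, Itga6 and Itgav, that of Itgb2 with those of Itgal and Itgam, and that of Itgb7 with that of Itga4. Cd44 encodes a receptor for hyaluronan, a polysaccharide of the matrix. Tetraspanins such as KAI1 are membrane proteins that associate with integrins and other receptors in the plane of the membrane. In bone marrow such receptors hold progenitors to stroma, and in mice the Itgb7 product guides mast cell progenitors to the gut.

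Values are the authors' RPKM, reads scaled to transcript length and to the mapped reads of the library, and these can be compared between genes. Differences are given on the log2(RPKM + 1) scale, which understates changes of low genes. The depth estimated from the steps of low values was between 9980000 and 26100000 reads per library. Cd82 itself stood at 7.65 and 6.91 RPKM in the KAI1 knockdown, against 43.9 and 13.8 RPKM in the knockdown control, a difference of -1.64 (SE 0.58) that limma did not call (adjusted p = 0.83). This difference was -0.84 against control replicate 2 alone (limma adjusted p = 0.406) and -2.44 against control replicate 1 alone (limma adjusted p = 0.0181). Cd82 stood at 15.2 RPKM in the KAI1 overexpression and 11.9 RPKM in its control. The mast cell genes Cpa3 and Kit were present in every library, at 2246 RPKM or more and 83.3 RPKM or more. Of the basophil markers, Mcpt8 lay between 116 and 3908 RPKM and Prss34 between 0.143 and 4.20 RPKM.

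The libraries did not stand equally close together, and knockdown control replicate 1 stood apart in these genes. Of the 9 members with a mean of at least 1 RPKM in the knockdown arm, 7 differed at least 2-fold between the controls, or 77.8%, where 21.3% of all 10113 entries did. Cd44, among the 7, reached that mean only through knockdown control replicate 1. Between the KAI1 knockdown replicates 1 of the 9 differed 2-fold, where 2.53% of all entries did. For each member tested, the knockdown difference is therefore also given with either control left out.

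Itgb7, the beta subunit of the mucosal homing receptor, was the member of highest level in the KAI1 overexpression and in knockdown control replicate 1. It stood at 11.4 and 18.8 RPKM in the KAI1 knockdown, against 75.6 and 12.4 RPKM in the knockdown control, and at 45.0 RPKM in the KAI1 overexpression, against 14.2 RPKM in the overexpression control. A single control and the overexpression library were high, the other 4 libraries lay between 11.4 and 18.8 RPKM, and the knockdown and its controls overlapped. Itgb7 was 3.04-fold higher in the KAI1 overexpression than in its control on the RPKM + 1 scale (log2 ratio 1.60), with 1 library a side and no test. The knockdown difference of -1.03 (SE 0.91) was not called by limma (adjusted p = 0.834). Set against control replicate 2 alone it was 0.23 (limma adjusted p = 0.783), and set against control replicate 1 alone -2.29 (limma adjusted p = 0.0473).

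Itga5, which encodes the alpha subunit of the classical fibronectin receptor, was also highest in knockdown control replicate 1. Its values were 9.53 and 10.3 RPKM in the KAI1 knockdown, against 29.1 and 5.64 RPKM in the knockdown control, and 9.22 RPKM in the KAI1 overexpression, against 8.59 RPKM in its control. The controls lay on either side of the knockdown, and the overexpression arm showed a log2 ratio of 0.09. The knockdown difference of -0.37 (SE 0.77) was not called by limma (adjusted p = 0.92), and it became 0.72 when control replicate 1 was left out and -1.46 when control replicate 2 was.

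Itgav, whose product binds vitronectin and other ligands with the sequence motif RGD, was low throughout. It stood at 2.13 and 1.88 RPKM in the KAI1 knockdown, against 5.17 and 2.44 RPKM in the knockdown control, and at 1.51 RPKM in the KAI1 overexpression, against 1.32 RPKM in its control. Both knockdown libraries lay below both controls, but the difference of -0.62 (SE 0.37) was not called by limma (adjusted p = 0.83). It was -0.20 with control replicate 1 left out and -1.04 with control replicate 2 left out (limma adjusted p = 0.642 and 0.0624).

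Cd44 varied most of the 10 genes. It stood at 0.0858 and 1.47 RPKM in the KAI1 knockdown, against 21.2 and 0.756 RPKM in the knockdown control, and at 0.0112 RPKM in the KAI1 overexpression, against 0.561 RPKM in its control. These values rest on about 3 and 70 estimated reads in the knockdown, 984 and 18 in its controls, 1 in the overexpression library and 35 in its control. Knockdown control replicate 1 was high and every other library low. Through that library alone Cd44 reached the mean of 1 RPKM needed for the knockdown test. The knockdown difference of -1.93 (SE 1.33) was not called by limma (adjusted p = 0.83), and it was -0.10 when control replicate 1 was left out and -3.76 when control replicate 2 was. Unlike Itgb7, Cd44 was not high in the KAI1 overexpression, where its mean with the control was under 1 RPKM, so no fold is given for that arm.

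Promoters from RefSeq on GRCm38.p6, 250 bases before to 50 after the start of the gene, are shown for the 3 members that stood highest in knockdown control replicate 1 relative to the other control and for Itga4, which was low in the same library. The table held promoters of 7 of the 10 genes. Capitals mark matches, on either strand, to GAGGAA (the core bound by PU.1), TGTGGT (Runx factors), to AGATAA and its variant form TGATAA (both for factors of the GATA family) and to CATGTG (an E-box bound by MITF, a mast cell factor), and no matches overlapped in these windows. Itgb7 is read from chr15:102231886-102232185, Itga5 from chr15:103366742-103367041 and Cd44 from chr2:102901616-102901915, all on the minus strand, and Itga4 from chr2:79255176-79255475 on the plus strand.
Itgb7: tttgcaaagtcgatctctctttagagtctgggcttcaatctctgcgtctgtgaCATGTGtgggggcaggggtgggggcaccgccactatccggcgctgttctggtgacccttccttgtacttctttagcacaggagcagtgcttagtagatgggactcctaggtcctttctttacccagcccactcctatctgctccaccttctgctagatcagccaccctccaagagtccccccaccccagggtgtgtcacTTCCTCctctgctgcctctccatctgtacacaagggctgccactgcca
Itga5: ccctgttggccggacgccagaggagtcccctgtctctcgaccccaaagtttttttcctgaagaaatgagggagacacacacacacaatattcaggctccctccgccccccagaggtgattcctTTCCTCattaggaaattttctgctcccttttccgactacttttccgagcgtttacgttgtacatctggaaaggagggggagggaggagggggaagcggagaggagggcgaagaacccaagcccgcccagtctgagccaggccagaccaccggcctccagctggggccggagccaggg
Cd44: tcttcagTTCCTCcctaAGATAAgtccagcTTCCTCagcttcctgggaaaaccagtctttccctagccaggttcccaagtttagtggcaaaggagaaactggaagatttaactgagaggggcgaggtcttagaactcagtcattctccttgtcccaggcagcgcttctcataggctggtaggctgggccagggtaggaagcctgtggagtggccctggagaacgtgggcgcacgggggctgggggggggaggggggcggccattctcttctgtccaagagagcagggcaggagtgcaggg
Itga4: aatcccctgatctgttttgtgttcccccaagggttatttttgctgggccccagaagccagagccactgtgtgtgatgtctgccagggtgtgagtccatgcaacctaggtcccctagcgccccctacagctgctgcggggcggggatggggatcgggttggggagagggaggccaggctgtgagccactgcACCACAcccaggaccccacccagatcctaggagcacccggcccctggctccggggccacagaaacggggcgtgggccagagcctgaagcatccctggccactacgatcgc

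GAGGAA was found in 6 of the 7 promoters (Itga5, Itgav, Itgam, Itgb1, Itgb7 and Cd44), whose levels do not follow 1 pattern, and in 28.3% of all 32851 promoters of the table. CATGTG was found in that of Itgb7 alone and in 14.2% of all. TGTGGT was found in that of Itga4 alone and in 16.8% of all, AGATAA in that of Cd44 alone and in 11.2% of all, and TGATAA in 0 of the 7 and in 9.05% of all. A match is a description of these letters, not a site shown to be bound.

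The leukocyte integrin genes Itgal and Itgb2, which encode the subunits of LFA-1, a receptor for ICAM proteins, ran the other way to Itgb7. Itgal stood at 31.6 and 34.6 RPKM in the KAI1 knockdown, against 4.50 and 23.8 RPKM in the knockdown control, and at 17.7 RPKM in the KAI1 overexpression, against 35.1 RPKM in its control. Both knockdown libraries lay above both controls, and knockdown control replicate 1 was the lowest library. The means were 33.1 ± 2.16 RPKM in the KAI1 knockdown and 14.2 ± 13.7 RPKM in the knockdown control (SD, n = 2 each). The difference of 1.54 (SE 0.77) was not called by limma (adjusted p = 0.83), and became 0.46 against control replicate 2 alone (limma adjusted p = 0.406) and 2.63 against control replicate 1 alone (limma adjusted p = 0.0172). In the overexpression arm Itgal was 1.92-fold lower (log2 ratio -0.94), short of the 2-fold used as a limit of size.

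Itgb2 stood at 7.82 and 15.1 RPKM in the KAI1 knockdown, against 1.85 and 10.8 RPKM in the knockdown control, and at 2.63 RPKM in the KAI1 overexpression, against 8.64 RPKM in its control. The knockdown and its controls overlapped, and the lowest values were those of knockdown control replicate 1 and the overexpression library. Itgb2 was 2.66-fold lower in the KAI1 overexpression than in its control (log2 ratio -1.41, 1 library a side, no test). The knockdown difference of 1.04 (SE 0.78) was not called by limma (adjusted p = 0.83) and became 0.01 with control replicate 1 left out and 2.07 with control replicate 2 left out (limma adjusted p = 0.995 and 0.073).

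Itgam, which encodes the alpha subunit of the myeloid complement receptor Mac-1, was barely detected. It stood at 0.532 and 1.16 RPKM in the KAI1 knockdown, against 0.0218 and 0.835 RPKM in the knockdown control, and at 0.486 RPKM in the KAI1 overexpression, against 0.335 RPKM in its control. About 2 reads were estimated in knockdown control replicate 1 and 32 to 106 in the other libraries. Its mean was below 1 RPKM in both arms, so it was the member that entered neither test. Both LFA-1 subunits were well above it in every library.

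The laminin receptor gene Itga6 stood at 22.6 and 24.3 RPKM in the KAI1 knockdown, against 8.39 and 20.4 RPKM in the knockdown control, and at 8.82 RPKM in the KAI1 overexpression, against 18.3 RPKM in its control. Both knockdown libraries lay above both controls, and knockdown control replicate 1 and the overexpression library were low at nearly the same level. The knockdown difference of 0.78 (SE 0.46) was not called by limma (adjusted p = 0.83), and became 0.19 with control replicate 1 left out and 1.38 with control replicate 2 left out (limma adjusted p = 0.612 and 0.0346). The overexpression ratio was -0.98 (1.97-fold lower), and it crossed 2-fold with a pseudocount of 0.1 (-1.05) and with upper-quartile scaling (-1.01).

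Itga4, whose product pairs with that of Itgb1 to bind VCAM-1 and fibronectin or with that of Itgb7 to bind MAdCAM-1, stood at 13.0 and 15.2 RPKM in the KAI1 knockdown, against 3.82 and 19.7 RPKM in the knockdown control. It stood at 7.82 RPKM in the KAI1 overexpression, against 13.5 RPKM in its control. The controls lay on either side of the knockdown, whose difference of 0.59 (SE 0.74) was not called by limma (adjusted p = 0.867) and became -0.46 when control replicate 1 was left out and 1.64 when control replicate 2 was. The deposited span of Itga4 (chromosome 2, 79095583 to 79269145 on mm9) is shared with Cerkl, which lay between 0.365 and 1.74 RPKM, and reads of overlapping genes may be split between them.

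Itgb1, the common beta subunit of the matrix receptors, was the steadiest member between replicates. It stood at 37.8 and 37.1 RPKM in the KAI1 knockdown, against 44.8 and 46.9 RPKM in the knockdown control, and at 21.5 RPKM in the KAI1 overexpression, against 28.3 RPKM in its control. Both knockdown libraries lay below both controls, with means of 37.5 ± 0.549 RPKM in the KAI1 knockdown and 45.9 ± 1.44 RPKM in the knockdown control (SD, n = 2 each). The difference of -0.28 (SE 0.22) was not called by limma (adjusted p = 0.83), and it was -0.32 and -0.25 without control replicates 1 and 2. The level was lower in KAI1 overexpression than in its control as well (log2 ratio -0.38), and both libraries of that arm were below all 4 libraries of the knockdown arm.

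**Figure D1:**
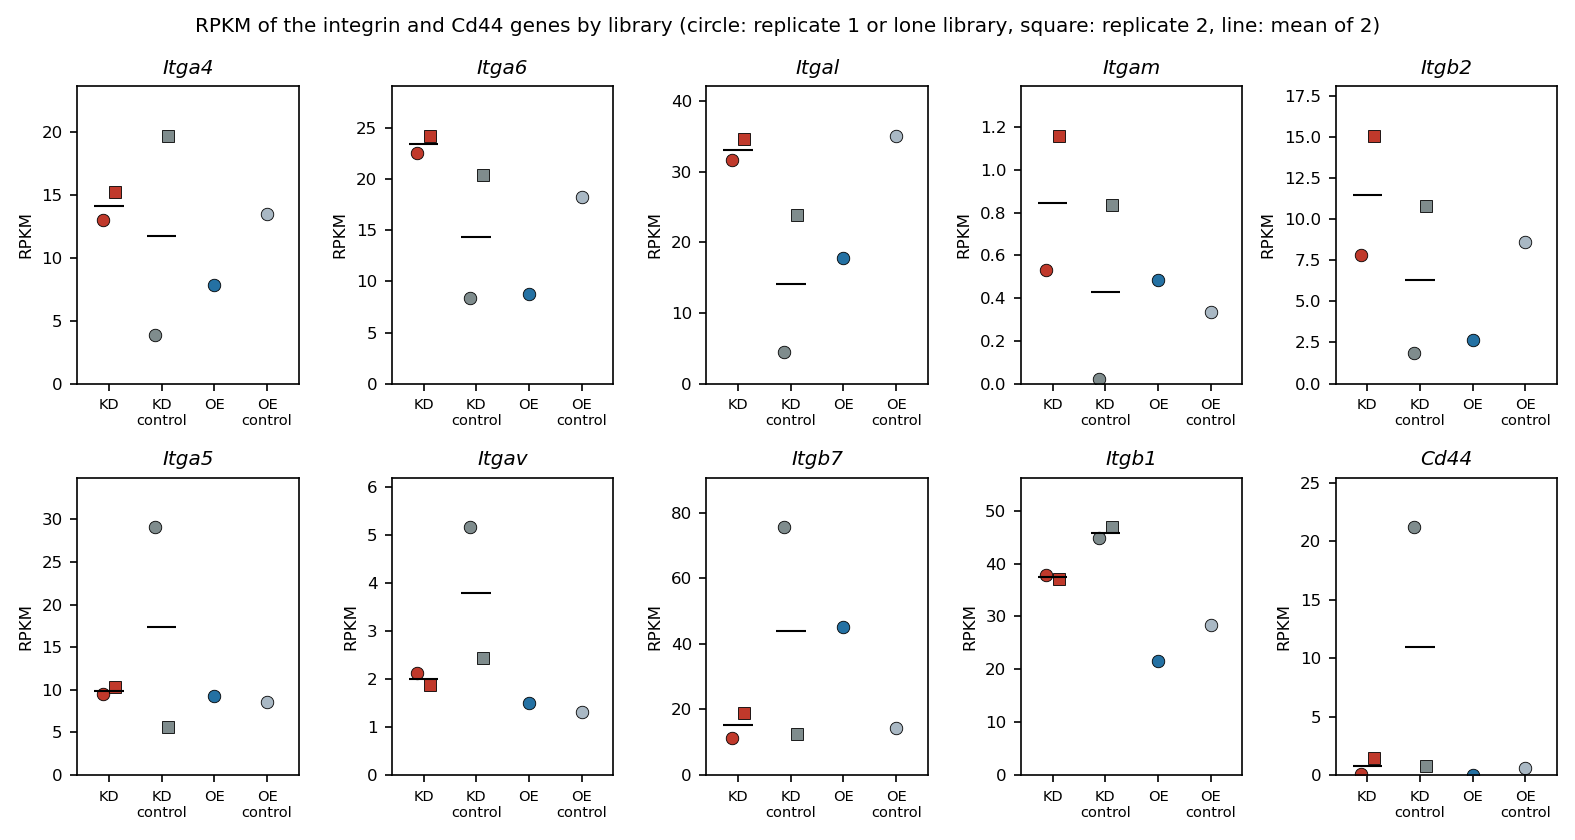
RPKM (vertical axes, linear and from 0) of each of the 10 genes in the KAI1 knockdown (KD), its control, the KAI1 overexpression (OE) and its control; circles are replicate 1 or the lone library, squares replicate 2 and lines the mean of 2. In Itgb7, Itga5 and Cd44 the first control is the highest point (75.6, 29.1 and 21.2 RPKM), and in Itgal, Itgb2 and Itga4 the lowest (4.50, 1.85 and 3.82 RPKM).

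Read together in the knockdown, 0 of the 9 members tested passed limma's test (0.0297% of all 10113 entries did, that is 3), and the smallest unadjusted p of a member was 0.109, while 336 entries had an unadjusted p below 0.05. Itga6 and Itgal stood above both controls in each knockdown library, 22.2% of the members tested against 21.5% of all entries, and Itgav and Itgb1 below both, 22.2% against 17.0%, so these shares are near the background. The members' median difference was -0.28, beside 0.0281 over all entries, and the median size of the difference without its sign was 0.78, beside 0.28. Without control replicate 2, limma called 6 of the 9 (Itga4, Itga5, Itga6, Itgal, Itgb7 and Cd44) where it called 10.3% of all entries. Without control replicate 1 it called 0 of the 9 and 0.158% of all entries, and the differences of Itga4, Itga5 and Itgb7 changed sign. With a control left out its group has 1 library, which is assumed to vary like the knockdown pair. Cd44 passed the filter of 1 RPKM only through control replicate 1, the library against which it was then called.

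In the overexpression arm 2 of the 8 members compared were 2-fold or more apart, Itgb7 upward and Itgb2 downward. Of all 9936 entries 10.1% were that far apart, 4.92% upward and 5.21% downward. The median log2 ratio of the members was -0.55, beside 0.00572 over all entries. Itga4, Itga6, Itgal, Itgb1 and Itgb2 stood lower in the KAI1 overexpression than in its control, and Itga5, Itgav and Itgb7 higher, with no replicate to set against the size.

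The knockdown and overexpression differences were compared in 1 fit over the 6 libraries, as the overexpression difference minus the knockdown difference. It was 2.63 for Itgb7 (SE 1.62, limma adjusted p = 0.796), -2.49 for Itgal (SE 1.37, adjusted p = 0.794), -2.45 for Itgb2 (SE 1.40, adjusted p = 0.794) and -1.76 for Itga6 (SE 0.80, adjusted p = 0.794). None of the 9 members was called, where 0.119% of all entries were. Without knockdown control replicate 1 these values were 1.38 for Itgb7, -1.40 for Itgal, -1.42 for Itgb2 and -1.17 for Itga6, and limma called 0 members and 0.386% of all entries. Without knockdown control replicate 2 they were 3.89 for Itgb7, -3.57 for Itgal, -3.48 for Itgb2 and -2.36 for Itga6, and it called 3 members (Itga4, Itga6 and Itgal) and 7.10% of all entries. The spread in this fit comes from the knockdown arm alone.

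**Figure D2:**
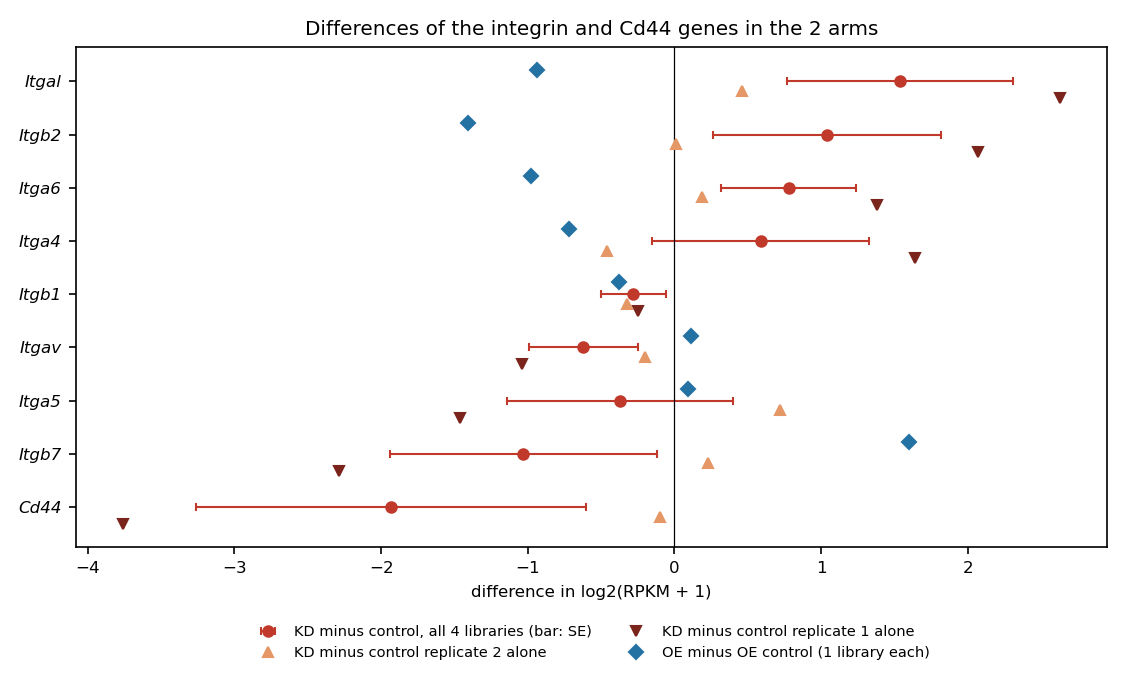
Differences in log2(RPKM + 1) for the 9 members tested: circles are KAI1 knockdown (KD) minus control with its SE, triangles the same against 1 control alone, and diamonds KAI1 overexpression (OE) minus its control, with Cd44 not compared in that arm. The triangles lie far apart in Itgb7 (0.23 and -2.29) and Itgal (0.46 and 2.63) and close together in Itgb1 (-0.32 and -0.25).

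The order of the members by RPKM differed between libraries. Itgb1, Itgal and Itga6 led, in that order, in both KAI1 knockdown libraries and in knockdown control replicate 2, and Itgal, Itgb1 and Itga6 in the overexpression control. In the KAI1 overexpression Itgb7 led, followed by Itgb1 and Itgal. In knockdown control replicate 1 Itgb7 led, followed by Itgb1, Itga5 and Cd44, and Itgal was in place 7. Itgb7 reached the 91.8th percentile of all entries in the overexpression library and the 94.8th in that control, against percentiles from 79.2 to 84.4 in the other 4 libraries.

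Since RPKM are per length, the make-up of the beta genes among the members can be given as shares of the summed RPKM of Itgb1, Itgb2 and Itgb7. Itgb7 made up 20.0% and 26.5% in the KAI1 knockdown, against 61.8% and 17.7% in the knockdown control, and 65.1% in the KAI1 overexpression, against 27.7% in its control. Itgb1 made up 66.3% and 52.2% in the KAI1 knockdown, against 36.7% and 66.9% in the knockdown control, and 31.1% in the KAI1 overexpression, against 55.3% in its control. Itgb2 made up 13.7% and 21.3% in the KAI1 knockdown, against 1.51% and 15.4% in the knockdown control, and 3.80% in the KAI1 overexpression, against 16.9% in its control. In beta genes, then, the overexpression library and knockdown control replicate 1 were alike, with Itgb7 the major transcript.

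They were not alike in the alpha genes. Itga5 made up 57.0% of the summed alpha RPKM in knockdown control replicate 1 and 20.2% in the KAI1 overexpression, and between 7.73% and 12.0% in the other libraries. Itgal made up 39.8% and 39.6% in the KAI1 knockdown, against 8.82% and 32.7% in the knockdown control, and 38.9% in the KAI1 overexpression, against 45.4% in its control. The ratio of Itgb7 to Itga4, its alpha partner, was 0.878 and 1.24 in the KAI1 knockdown, against 19.8 and 0.630 in the knockdown control, and 5.76 in the KAI1 overexpression, against 1.05 in its control. These are RNA shares in bulk samples, in which fewer cells of a type and less RNA per cell cannot be told apart.

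**Figure D3:**
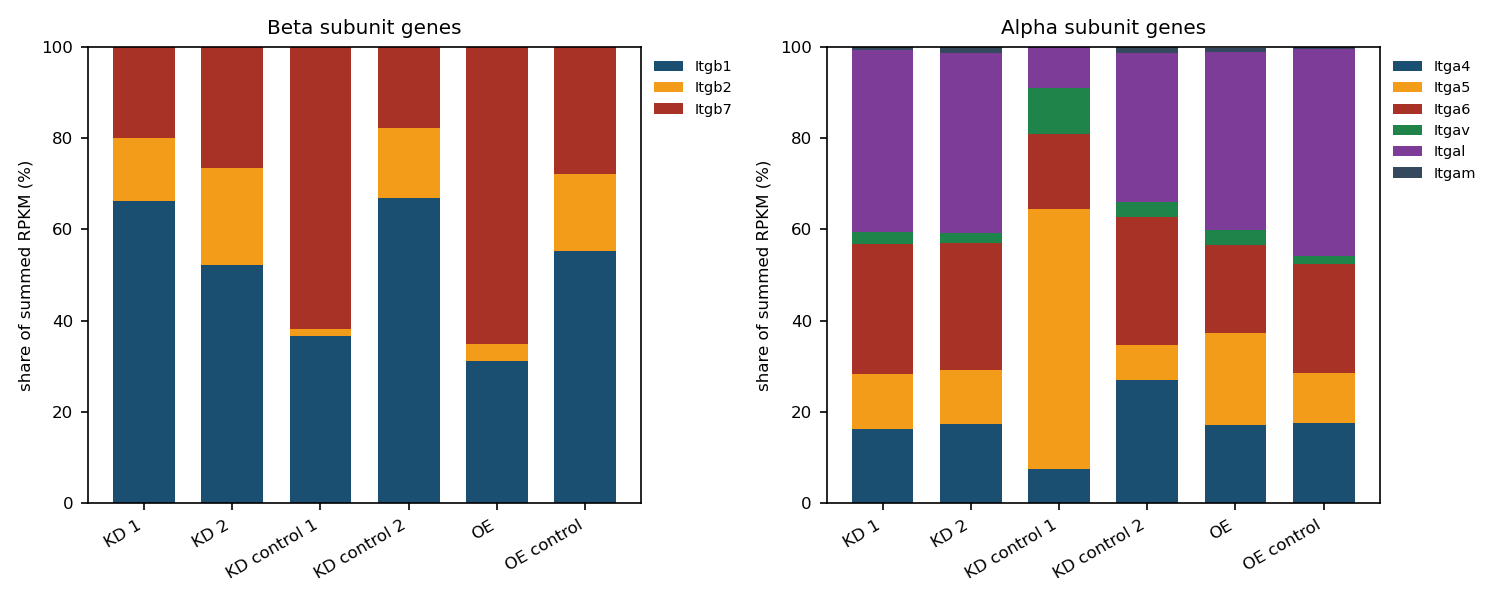
Share of the summed RPKM (%, from 0) of the 3 beta genes and of the 6 alpha genes among the members in each library. KD is the KAI1 knockdown and OE the KAI1 overexpression. Itgb7 fills 65.1% of the OE bar and 61.8% of the bar of KD control 1, against 17.7% to 27.7% elsewhere, and Itga5 fills 57.0% of the alpha bar of KD control 1.

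Across the 6 libraries the median SD of the 9 members with a mean of at least 1 RPKM was 0.756 on the log2 scale, beside 0.321 over 10112 entries. By the root mean square difference of profiles, each centred on its mean and divided by its SD (0 for the same shape), Itga4, Itga6, Itgal and Itgb2 lay 0.248 to 0.539 from each other, and Itga5, Itgav, Itgb7 and Cd44 0.413 to 0.846. Pairs from different sets lay 1.54 to 1.79 apart. Itgb1 lay 0.703 to 1.45 from the rest. The sets were drawn after the values were seen and describe 6 points that are ordered largely by 1 control library.

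Genes of the most similar profile were Eif4e3, a cap-binding factor, and Tdrd7 for Itgb7 (differences of 0.0372 and 0.0677), and Pip5k1a, a kinase that makes phosphatidylinositol bisphosphate, and Chst11, which sulfates chondroitin, for Cd44 (0.0655 and 0.0964). Eif4e3 stood at 5.84 and 7.40 RPKM in the KAI1 knockdown, against 14.0 and 6.27 RPKM in the knockdown control, and at 10.9 RPKM in the KAI1 overexpression, against 6.65 RPKM in its control. For Itga6 Tmem176b (0.0703) is given, and for Itgal they were the cytochrome gene Cyc1 (0.0310) and Rpusd3 (0.0642). For Itga4 they were Dap3 (0.0674) and Zeb1 (0.0780), for Itga5 Washc1 (0.0814) and Rgs12 (0.0935), for Itgav Tpp1 (0.108) and Efr3a (0.123), and for Itgb2 the kinase genes Cdk17 and Csnk1g1 (0.0880 each).

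Mast cell and erythroid genes moved with some of the members. In the KAI1 overexpression the mast cell list stood at 0.78 log2 units from its mean over the libraries, and Itgb7 at 0.96. Cd44 stood there at -1.21, Itgb1 at -0.67, Itgav at -0.36 and Itga5 at -0.17. The 19 mast cell and basophil markers summed to 9405 and 8442 RPKM in the KAI1 knockdown, against 79189 and 17331 RPKM in the knockdown control, and to 28985 RPKM in the KAI1 overexpression, against 7115 RPKM in its control. In the knockdown 10 of 18 tested lay below both controls and 0 above, where 17.0% and 21.5% of all entries did. Their median difference was -1.72, or -0.52 and -2.87 with control replicates 1 and 2 left out. In the overexpression arm 13 of 18 were at least 2-fold higher and 0 lower, where 4.92% and 5.21% of all entries were. Fcer1a, which encodes the alpha chain of the IgE receptor, had a listed value of 0 in replicate 1 of the KAI1 knockdown and replicate 2 of its control, and no other gene of this list was listed at 0.

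The 16 erythroid entries summed to 4393 and 5133 RPKM in the KAI1 knockdown, against 208 and 6064 RPKM in the knockdown control, and to 1119 RPKM in the KAI1 overexpression, against 3474 RPKM in its control. In the knockdown 0 of 14 tested lay above both controls and 2 below, where 21.5% and 17.0% of all entries did. Their median difference was 1.93, or -0.33 without control replicate 1. In the overexpression arm 11 of 13 were at least 2-fold lower and 0 higher, where 5.21% and 4.92% of all entries were. The embryonic globin gene Hbb-bh1, Car2 and Slc4a1 were listed at 0 in knockdown control replicate 1, and Slc4a1 also in KAI1 knockdown replicate 2 and the KAI1 overexpression. Gata1 and Epor, the 2 below both controls, went the other way and were highest in knockdown control replicate 1. They stood at 87.3 and 15.6 RPKM in it, against 53.5 and 14.8 RPKM in the other control. Itgb7 was highest in the libraries with the largest mast cell sums, and Itga4, Itga6, Itgal and Itgb2 were lowest in those with the smallest erythroid sums. The part of these cell states in the members' values was not tested.

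Neutrophil and monocyte genes, with which Itgam and Itgb2 are often expressed, summed to 1236 and 939 RPKM in the KAI1 knockdown, against 1093 and 1253 RPKM in the knockdown control, and to 1435 RPKM in the KAI1 overexpression, against 1748 RPKM in its control. Ctsg, the gene of the protease cathepsin G, made up most of this sum in both knockdown controls, the KAI1 overexpression and its control, but not in the KAI1 knockdown. It stood at 444 and 434 RPKM in the KAI1 knockdown, against 1080 and 643 RPKM in the knockdown control, and at 1295 RPKM in the KAI1 overexpression, against 1034 RPKM in its control. In the overexpression arm 1 of 9 was at least 2-fold higher and 5 were lower, where 4.92% and 5.21% of all entries were. Their median log2 ratio was -1.62. In the knockdown limma called 0 of 9, and the median difference was 0.88, or -0.55 and 1.71 with control replicates 1 and 2 left out. Mpo, which encodes myeloperoxidase, stood at 750 and 470 RPKM in the KAI1 knockdown, against 7.84 and 538 RPKM in the knockdown control, and at 45.8 RPKM in the KAI1 overexpression, against 661 RPKM in its control. Like Itgb2, it was low in knockdown control replicate 1 and in the overexpression library. The late granule gene Camp was listed at 0 in every library. Of the lymphoid list, which summed to 9.62 RPKM or less, Ms4a1, Rag1, Rag2, Pax5 and Cd3e were listed at 0 in every library. Of the macrophage and dendritic cell list, Mrc1, C1qa, C1qc, Clec9a and Cd209a were listed at 0 in all 6, and of the stromal list Lum and Pdgfra were. The macrophage list summed to 27.7 and 27.7 RPKM in the KAI1 knockdown, against 85.8 and 26.2 RPKM in the knockdown control, and the stromal list to 261 and 277 RPKM, against 941 and 243 RPKM. The stem and progenitor list summed to 576 and 650 RPKM in the KAI1 knockdown, against 981 and 593 RPKM in the knockdown control, and the megakaryocyte list to 678 and 1204 RPKM, against 2188 and 945 RPKM. Single genes made up most of several sums. In all 6 libraries Flt3l did so in the macrophage list and Vim in the stromal list. They stood at 82.6 and 892 RPKM in knockdown control replicate 1, against 26.0 to 35.1 and 232 to 415 RPKM elsewhere. In that control Ly6a, at 748 RPKM, made up most of the stem and progenitor list. Pf4 made up most of the megakaryocyte list in every library but the KAI1 overexpression, and stood at 1541 RPKM in knockdown control replicate 1. Ppbp was also high there, at 550 RPKM against 31.1 RPKM in the other control. Gp9 and Nfe2 of the megakaryocyte list were low there, at 0.959 and 9.28 RPKM against 26.9 and 126 RPKM. The mean log2(RPKM + 1) of the stem and progenitor list was 3.37 and 3.50 in the KAI1 knockdown, against 2.50 and 3.09 in the knockdown control, and 2.61 in the KAI1 overexpression, against 3.37 in its control. By that mean this list was lowest in knockdown control replicate 1, although its sum there was the highest. In the KAI1 overexpression the megakaryocyte list summed to 175 RPKM, against 630 RPKM in its control. The part of these lists in the members' values was not tested.

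**Figure D4:**
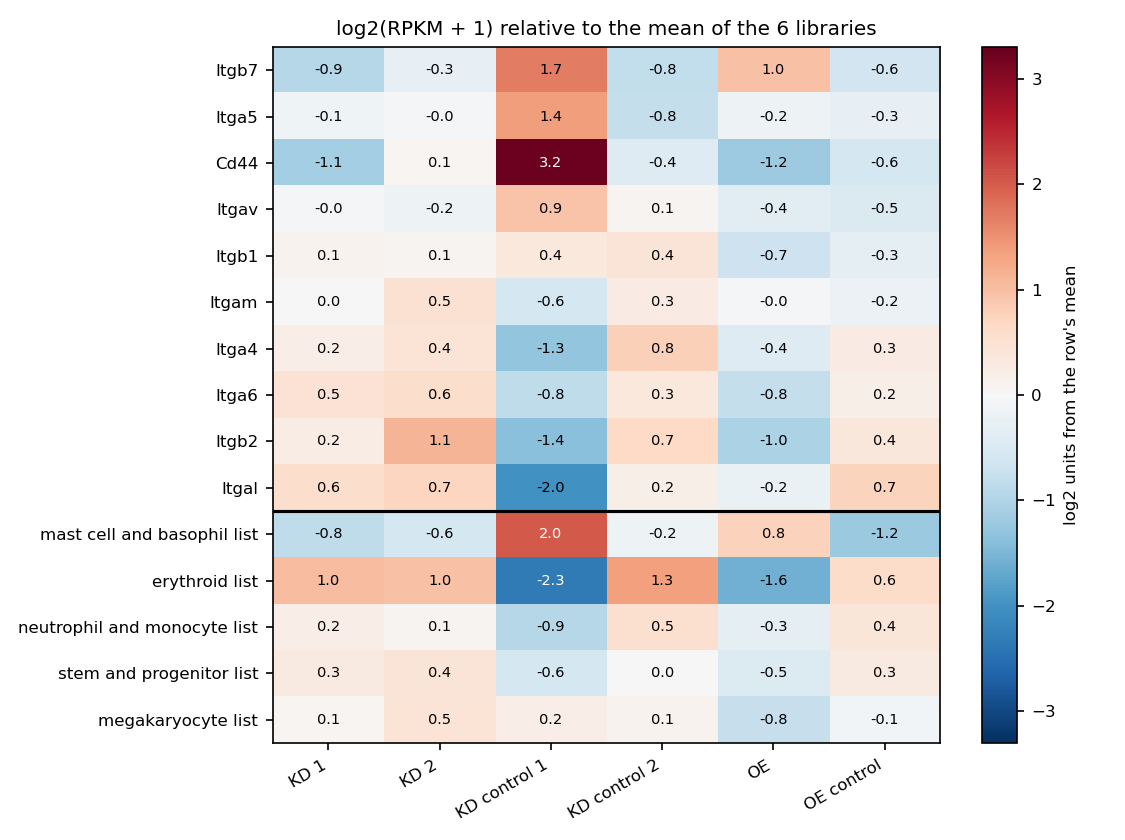
log2(RPKM + 1) of the 10 genes and the mean of 5 marker lists in each library, relative to the row's mean over the 6 libraries (colour and printed value); KD is the KAI1 knockdown and OE the KAI1 overexpression. In KD control 1 Cd44 stands at 3.25 and Itgal at -1.99 relative to its mean, with the mast cell list at 2.02 and the erythroid list at -2.33.

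Of 18 other integrin subunits 17 had an entry, 5 had a mean of at least 1 RPKM, and limma called 0. The most abundant integrin transcript of all was Itga2b, the alpha subunit of the platelet fibrinogen receptor, at 190 and 220 RPKM in the KAI1 knockdown, against 254 and 118 RPKM in the knockdown control, and 215 RPKM in the KAI1 overexpression, against 203 RPKM in its control. Its partner Itgb3 was far lower, between 7.23 and 14.1 RPKM. Itgae, the other alpha partner of the Itgb7 product, stood at 5.44 and 4.10 RPKM in the KAI1 knockdown, against 0.963 and 8.52 RPKM in the knockdown control. It did not share the high value of Itgb7 in that first control. In the KAI1 overexpression, where Itgb7 was also high, Itgae stood at 8.80 RPKM, against 5.16 RPKM in its control.

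Itga9, whose product binds VCAM-1 and tenascin, was high in the same libraries as Itgb7. It stood at 1.19 and 0.987 RPKM in the KAI1 knockdown, against 7.43 and 1.41 RPKM in the knockdown control (difference -1.11, SE 0.66, limma adjusted p = 0.83; -0.21 and -2.01 with control replicates 1 and 2 left out), and at 5.76 RPKM in the KAI1 overexpression, against 0.618 RPKM in its control (4.18-fold higher). Itgb5, a partner of the Itgav product, stood at 0.837 RPKM in the KAI1 overexpression, against 9.0 RPKM in its control (5.44-fold lower), and in the KAI1 knockdown at 5.44 and 5.49 RPKM, against 11.4 and 2.79 RPKM in the knockdown control. Itgb8 and Itgb2l were listed at 0 in every library.

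Of 34 genes for integrin activation and the adhesion complex 24 were tested in the knockdown, and limma called 0. Above both controls lay 4 and below both 6, where 21.5% and 17.0% of all entries did. The median difference of the 24 was -0.09, or 0.25 and -0.39 without control replicates 1 and 2. Ptk2b, the kinase Pyk2, stood at 26.5 and 31.1 RPKM in the KAI1 knockdown, against 93.1 and 33.4 RPKM in the knockdown control, and at 44.2 RPKM in the KAI1 overexpression, against 21.5 RPKM in its control. Ptk2, which encodes the related focal adhesion kinase, was listed at 0 in all 6 libraries. The actin cross-linker Flna stood at 43.7 and 36.8 RPKM in the KAI1 knockdown, against 19.5 and 27.3 RPKM in the knockdown control (difference 0.77, SE 0.28, limma adjusted p = 0.83), and its difference was 0.54 and 1.0 with control replicates 1 and 2 left out. Pxn, the scaffold paxillin, stood at 25.6 and 31.9 RPKM in the KAI1 knockdown, against 15.2 and 18.9 RPKM in the knockdown control.

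In the overexpression arm 2 of 24 genes of this list were at least 2-fold higher and 1 lower, where 4.92% and 5.21% of all entries were. The median log2 ratio of the list was 0.31. Higher were Ptk2b (2.01-fold) and Vcl, which links talin to actin, at 23.5 RPKM in the KAI1 overexpression and 8.24 RPKM in its control. Lower was Actn1, an actin cross-linker, at 2.53 RPKM in the KAI1 overexpression and 12.9 RPKM in its control. Actn1 stood at 10.8 and 12.8 RPKM in the KAI1 knockdown, against 4.56 and 9.12 RPKM in the knockdown control.

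Of 28 ligand genes 5 were tested in the knockdown, and limma called 0. Above both controls lay 2 and below both 0, where 21.5% and 17.0% of all entries did. Icam2, a ligand of LFA-1, stood at 61.7 and 104 RPKM in the KAI1 knockdown, against 22.1 and 37.7 RPKM in the knockdown control (difference 1.44, SE 0.42, limma adjusted p = 0.83), and the difference was 1.06 without control replicate 1. Icam4, a red cell ligand, stood at 5.95 and 7.57 RPKM in the KAI1 knockdown, against 5.73 and 4.25 RPKM in the knockdown control. In the overexpression arm the laminin chain gene Lama5 stood at 3.76 RPKM in the KAI1 overexpression and 0.0511 RPKM in its control. It was the 1 gene of 7 that differed 2-fold, where 10.1% of all entries did. Lama5 reached the mean of 1 RPKM needed for this comparison only through the KAI1 overexpression library, so its passing 2-fold followed from the filter. Madcam1, which encodes the Itgb7 ligand, was listed at 0 in every library.

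Of 18 genes tied to hyaluronan, Cd44 shedding and the ERM linkers 12 were tested, and limma called 0. Above both controls lay 3 and below both 2, where 21.5% and 17.0% of all entries did. Ezr, which encodes the linker ezrin, stood at 57.5 and 66.5 RPKM in the KAI1 knockdown, against 36.7 and 44.3 RPKM in the knockdown control. Hyal2, a hyaluronidase, stood at 20.9 and 20.6 RPKM in the KAI1 knockdown, against 6.40 and 16.2 RPKM in the knockdown control. Below both controls were Hmmr, another hyaluronan receptor gene, at 13.5 and 18.1 RPKM in the KAI1 knockdown, against 24.6 and 24.0 RPKM in the knockdown control, and the proteoglycan gene Srgn. Mmp14, a membrane protease that cleaves CD44, was the 1 gene of 12 past 2-fold in the overexpression arm, where 10.1% of all entries were. It stood at 0.419 RPKM in the KAI1 overexpression and 11.7 RPKM in its control.

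Of 25 tetraspanins and partner genes 19 were tested, and limma called 0. Above both controls lay 2 and below both 6, where 21.5% and 17.0% of all entries did. Cd81, another tetraspanin that associates with integrins, stood at 1.15 and 24.0 RPKM in the KAI1 knockdown, against 73.8 and 35.5 RPKM in the knockdown control. Its knockdown replicates differed widely. Cd53, a leukocyte tetraspanin, stood at 43.3 RPKM in the KAI1 overexpression and 16.0 RPKM in its control. Tspan33 and Tspan9 stood at 0.135 and 0.127 RPKM in the KAI1 overexpression, against 7.84 and 2.05 RPKM in its control. Both reached the mean of 1 RPKM in that arm only through the control. Of 17 other adhesion genes 7 were tested and 0 called. Above both controls lay 2 (Cd34 and Pecam1) and below both 1 (Cd84), beside the same 21.5% and 17.0% of all entries. Cd34, a sialomucin of progenitors, stood at 65.7 and 77.9 RPKM in the KAI1 knockdown, against 0.859 and 64.7 RPKM in the knockdown control, and was 3.98-fold lower in the KAI1 overexpression, at 15.9 RPKM against 66.4 RPKM in its control. Cd47, an integrin-associated protein gene, was 2.42-fold higher in the KAI1 overexpression, at 69.3 RPKM against 28.0 RPKM in its control.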

How the data were processed

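RNA of 6 EML libraries was measured. The authors deposited RPKM per transcript entry (unit per the file headers). Named in the submitters' processing notes are mm9, TopHat2 2.0.9, Bowtie and Cufflinks, without settings, so strand and counting rule are unknown. Each table held 23170 entries, and 23146 remained after 24 repeats of accession and locus were dropped. RefSeq accessions were matched to symbols through tables on GRCm38, used for names only, which left 181 entries without a symbol. Spans on mm9, counted from 1, come from the deposited tables. Relative depth was taken from the steps of low values and scaled with transcript lengths (375 entries). Count models were not used, since RPKM are no counts.

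For the knockdown, limma 3.58.1 (R 4.3.3) was run, two-sided, with a mean-variance trend, on log2(RPKM + 1) for the 10113 entries averaging 1 RPKM or more over 4 libraries. Benjamini-Hochberg adjustment ran over all of them, with a threshold of 0.05. The arms were compared in 1 fit on 10112 entries. The overexpression arm has 1 library a side and a size limit of 2-fold. The tests were checked on simulated data. The members and lists were chosen with earlier results of these data known. Named besides the members were up to 4 genes per list and arm, those not overlapping in the knockdown or past 2-fold in the overexpression arm, taken by size, other integrin subunits of at least 1 RPKM, and the 2 genes nearest in profile to each member with an SD of at least 0.5; Ptk2, Madcam1 and other genes listed at 0 were added after their values were seen. One gene that the profile rule named is not reported here. Alternatives were pseudocount, filter, scaling, span, summed entries, trend, replicate number and left-out libraries.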

Additional observations from a re-analysis of the deposited data

How the results depend on the processing

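Calls over all entries rest on few libraries. In the knockdown limma called 3 entries, 5 with a pseudocount of 0.1 and 0 without a filter on low values (683 at an unadjusted p below 0.05), and from 0 to 1045 with 1 library left out (58 and 88 at an unadjusted p below 0.05 where it called 0). Between the arms it called 12, against 2 with a pseudocount of 0.1, 67 without a filter, 1 with a minimum mean of 5 RPKM, and from 0 to 718 with 1 library left out (185 and 201 where it called 0). Members called ranged from 0 to 6 in the knockdown and from 0 to 3 between the arms with 1 library left out, and were 0 under every other setting run. Members whose groups did not overlap were 4 of 9 (38.5% of all entries), and 5 to 9 with 1 library left out (55.0% to 85.6% of all entries). With 1 library left out the knockdown differences ranged from -0.46 to 1.64 for Itga4, from -1.46 to 0.72 for Itga5 and from -2.29 to 0.23 for Itgb7, and the differences between the arms from -0.63 to 1.55 for Itga5 and from -0.53 to 3.14 for Cd44. The sign changed without knockdown control replicate 1. No scaling changed the sign of a member's difference, and 2 members passed 2-fold in the overexpression arm, 3 with a pseudocount of 0.1 or upper-quartile scaling. The replicate numbers are not stated to mark shared cultures, and the deviations of same-numbered libraries had a correlation of -0.0754 over 10113 entries. With the replicate block limma called 4 entries and 0 members. Itgam and Cd44 rest on as few as 2 and 1 estimated reads in a library, which limits what their values show.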
